A study of Mus musculus with 3 samples.

Results

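Ubiquitin ligases attach the small protein ubiquitin to chosen proteins and so mark many of them for the proteasome. Most work through a RING domain, either within a single protein (many Rnf, Trim and Ubr proteins) or in complexes built on a cullin, where F-box proteins (Fbxo, Fbxl) and BTB-kelch proteins (Klhl) pick the target. In eggs these enzymes meet a cell that makes almost no new mRNA: the anaphase-promoting complex, itself a cullin-RING-type ligase, is held inactive to keep the egg at metaphase II, and stored maternal mRNAs are translated when their poly(A) tails are lengthened.

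The genes described here are those whose symbol begins with Rnf, Trim, Fbxo, Fbxl, Klhl, Cul or Ubr followed directly by a digit, chosen by name and not by their values. They numbered 89 of 6104 gene symbols, with 127 of 9126 transcript rows, and each gene was represented by its row with the highest mean level. The study sequenced RNA of ICR mouse oocytes at metaphase II in 3 libraries, each a pool of 20 oocytes from 4 mice. Aged-sec oocytes were aged oocytes matured in M16 medium mixed 1 to 1 with secretome, meaning what mesenchymal stem cells of human umbilical cord release into their medium. Aged oocytes were matured in M16 without secretome, and so were young oocytes. All oocytes were taken at the germinal vesicle stage and matured in culture for 16 to 18 h, and the labels give neither the age of the mice nor any genotype difference. Because the treatment label is the same on every sample and reads as secretome, the groups rest on the sample titles.

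Every group had 1 library, so the values below carry no error between replicates and no p-value, and each difference is between libraries. Levels are TPM, transcript abundances per length that add up to 1000000 in each library. The table lists only transcripts whose aged TPM was 1.2 times the young TPM or more, and it held 32.1% of the TPM in aged-sec, 32.5% in aged and 22.9% in young oocytes. Being higher in aged than in young oocytes was therefore a condition of entry, for these genes as for all others. Choosing rows on a high aged value by itself lowers ratios that have aged as their denominator. In the same way, choosing them on a low young value raises ratios that have young as their denominator. The depth is unknown, since TPM keeps no read number, and in pooled cells fewer cells of a type and less RNA per cell cannot be told apart. Of 14 oocyte markers 4 were listed, led by Bmp15, an oocyte growth factor, at 799 TPM in aged-sec, 817 TPM in aged and 585 TPM in young oocytes. The log2 ratios of these markers in aged-sec over aged oocytes were −0.03 for Bmp15, −0.92 for Zp2, −0.56 for Gdf9 and 0.21 for Kit, computed with 0.5 TPM added in both libraries. Of 14 cumulus and granulosa cell markers 3 were listed, with a sum of 2.67 TPM in aged-sec, 3.56 TPM in aged and 1.24 TPM in young oocytes, and their part in the differences below was not tested. The follicle cell receptor Fshr was at 0.22 TPM in aged-sec, 0.55 TPM in aged and 0.03 TPM in young oocytes. Of 6 leukocyte markers 1 was listed, at no more than 0.02 TPM, and of 6 red blood cell markers 0 were listed.

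Since tail lengthening acts through short signals near the end of an mRNA, the sequences at the 3′ ends of the members are shown first. A cytoplasmic polyadenylation element, searched here as TTTTAT or TTTTAAT on the mRNA strand, is the signal bound by CPEB in oocytes, and the hexamer AATAAA or ATTAAA is the polyadenylation signal. The ends come from GENCODE M21 transcripts of GRCm38 that its RefSeq table pairs with the listed accessions, which could be done for 48 of the 89 members. Capitals mark the element and the hexamer within each 30-base window.
Fbxo5, chr10:5799226-5799255, minus strand: aatgtgagttttTTTTATatctgtgaatac
Rnf2, chr1:151469433-151469462, minus strand: gaatgtatgtgtTTTTATctgtctatggga
Trim75, chr8:64980884-64980913, minus strand: tattaaatttagTTTTAATAAAaaaaaatg
Rnf19b, chr4:129084489-129084518, plus strand: tgatgacacaTTTTAATAAAgaattctgtc
Rnf219, chr14:104477548-104477577, minus strand: tgcttTTTTATgtgaattaAATAAAggatg
Cul4b, chrX:38533281-38533310, minus strand: ttatacatcattAATAAAgcaaaaggttta
Fbxo11, chr17:87990863-87990892, minus strand: tcattttttaaaAATAAAgtttattagatc
Klhl28, chr12:64938836-64938865, minus strand: tgaagagtttaaAATAAAactgaaaaatgt
Rnf115, chr3:96791115-96791144, plus strand: tgtttgaaatggAATAAAtggagattgtgg
Trim32, chr4:65616201-65616230, plus strand: aagcattaaactAATAAAagtaataacttt

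The first 5 are abundant or strongly differing members with an element, and the other 5 have a hexamer but no element in the last 100 bases. Rnf2 had no hexamer in the last 40 bases, and the hexamer of Fbxo5 lies outside the printed window. In Trim75 and Rnf19b the element runs into the hexamer, and in Rnf219 it lies just before it. Over the 48 matched members, 12 (25%) had an element in the last 100 bases, against 21.4% of the 3483 listed genes that could be matched. A hexamer in the last 40 bases was found in 41 members (85.4%) and in 77.6% of the matched genes. A match describes the letters of the annotated end only. The 10 members with both signals had a median log2 ratio of −0.13 in aged-sec over aged oocytes, and the 31 with a hexamer alone had −0.08. Over all matched genes these medians were −0.18 for genes with both signals and −0.21 for genes with a hexamer alone. In aged over young oocytes the medians were 0.48 for members with both signals and 0.43 for members with a hexamer alone. The same medians over all matched genes were both 0.45.

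Members of the families ran from scarce to abundant, and 3 of the 285 listed genes with a mean of 100 TPM or more were members. Of 256 annotated protein-coding genes with such a name 88 had a listed transcript under the same symbol, or 34.4%, against 27.3% of 21900 protein-coding genes. The listed share was 5 of 8 for Cul, 4 of 6 for Ubr, 13 of 36 for Fbxo, 7 of 18 for Fbxl, 13 of 37 for Klhl, 30 of 83 for Rnf and 16 of 68 for Trim, and the other genes of the families were not analysed here. Levels reached 10 TPM in at least 1 library for 38 of the 89 members (42.7%), against 29.3% of all listed genes, and stayed under 1 TPM in all 3 libraries for 22 (24.7%), against 29.2%. The members together summed to 1830.0 TPM in aged-sec, 2049 TPM in aged and 1290 TPM in young oocytes. That is a ratio of sums of 0.89 in aged-sec over aged oocytes and of 1.59 in aged over young oocytes. Over all listed genes the ratios of sums were 1.00 and 1.40.

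**Figure D1:**
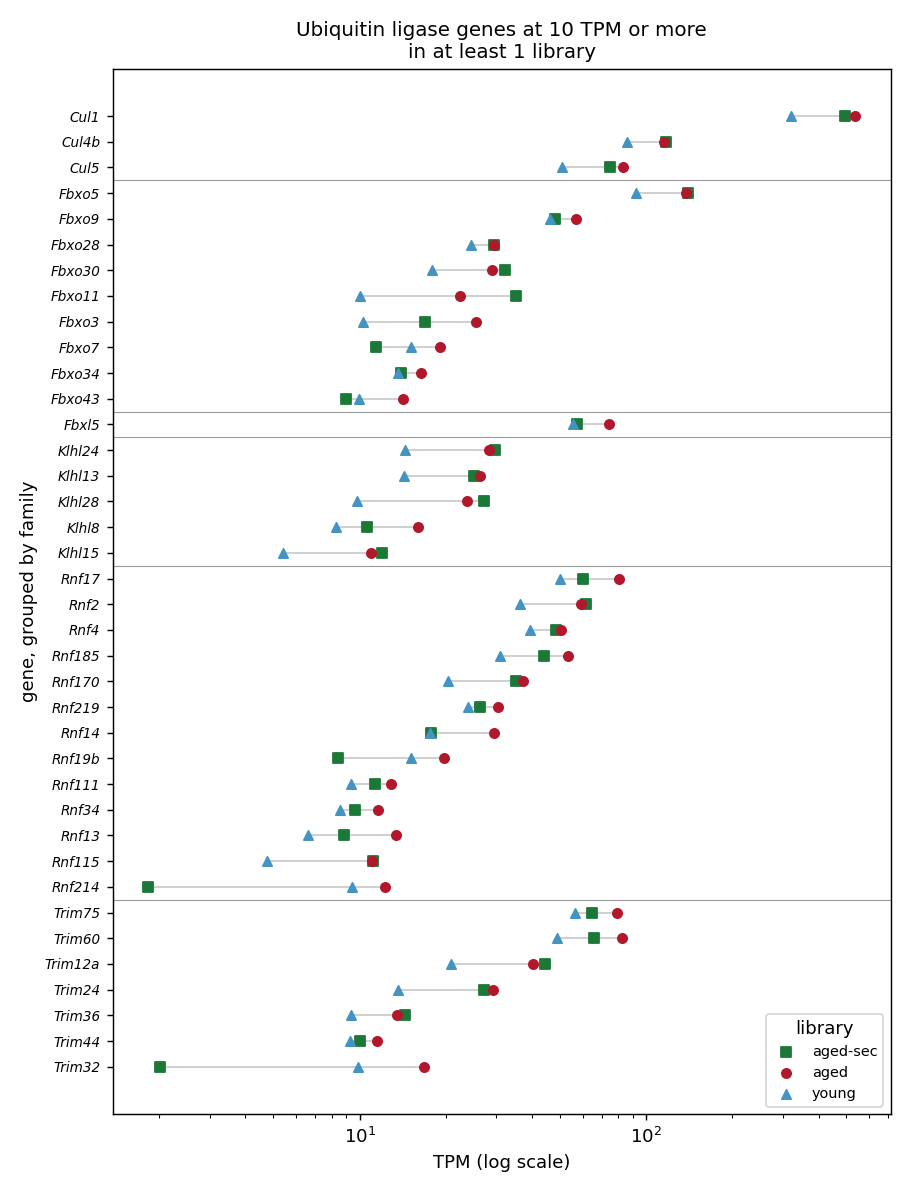
TPM on a log scale of the 38 members that reached 10 TPM in at least 1 library, with 1 point per library and genes grouped by family. Cul1 is the most abundant in every library, aged points lie right of young ones by the way the table was made, and the aged-sec points of Trim32 and Rnf214 lie far left of both others.

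Cullins are the scaffolds on which the modular ligases are assembled, and Cul1 was the most abundant member in all 3 libraries. Cul1, the scaffold of the F-box ligases, stood at 496 TPM in aged-sec, 536 TPM in aged and 319 TPM in young oocytes. Cul4b, which works with DDB1, stood at 117 TPM in aged-sec, 115 TPM in aged and 85.8 TPM in young oocytes. Cul5, which serves SOCS-box receptors, stood at 74.6 TPM in aged-sec, 83.2 TPM in aged and 50.8 TPM in young oocytes. Aged-sec values of these 3 scaffolds lay nearer to the aged than to the young ones, with log2 ratios of −0.11, 0.03 and −0.16 in aged-sec over aged oocytes. The listed transcripts of the other 2 cullins were scarce. Cul3, the scaffold of the BTB-kelch ligases, was at 1.60 TPM in aged-sec, 1.92 TPM in aged and 0.98 TPM in young oocytes. Cul2, the partner of the VHL receptor, was at 0.95 TPM in aged-sec, 1.43 TPM in aged and 1.03 TPM in young oocytes. Each of these was 1 of several annotated mRNAs of its gene, so its level is that of a variant and not of the gene.

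F-box genes linked to meiosis ran from Fbxo5, among the abundant members, down to Fbxo43, near 10 TPM. Fbxo5, known as Emi1, an inhibitor of the anaphase-promoting complex, was at 140.1 TPM in aged-sec, 137 TPM in aged and 92.0 TPM in young oocytes. Aged-sec and aged oocytes were close, with a log2 ratio of 0.03, and the aged over young log2 ratio was 0.57. Fbxo43, known as Emi2, the inhibitor that holds the egg at metaphase II, was represented by a predicted variant at 8.98 TPM in aged-sec, 14.2 TPM in aged and 9.97 TPM in young oocytes. Here the aged-sec value was below both others, a log2 ratio of −0.64 in aged-sec over aged oocytes. Fbxo30, a receptor linked to chromosome behaviour in mouse oocyte meiosis, was at 32.2 TPM in aged-sec, 28.9 TPM in aged and 17.9 TPM in young oocytes, so its aged-sec value was the highest of the 3.

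Of the 9 Fbxo genes at 10 TPM or more, 2 met the size rule in aged over young oocytes. Of listed genes at that level 15.9% met it. That rule asks for a log2 ratio of 1 or more in either direction, computed with 0.5 TPM added in both libraries, and for 10 TPM or more in the higher of them. Fbxo11, a receptor known for degrading BCL6 in lymphocytes, was at 35.1 TPM in aged-sec, 22.5 TPM in aged and 10.05 TPM in young oocytes. Its level was highest in aged-sec oocytes, with log2 ratios of 0.63 in aged-sec over aged, 1.12 in aged over young and 1.75 in aged-sec over young oocytes. Fbxo3 was at 16.9 TPM in aged-sec, 25.6 TPM in aged and 10.3 TPM in young oocytes, with log2 ratios of −0.58 in aged-sec over aged and 1.27 in aged over young oocytes. Fbxo9 was at 48.1 TPM in aged-sec, 56.9 TPM in aged and 46.3 TPM in young oocytes, and Fbxo28 was at 29.6 TPM in aged-sec, 29.4 TPM in aged and 24.4 TPM in young oocytes. Both differed little among the libraries. Fbxo7, a gene of inherited parkinsonism in humans, was at 11.4 TPM in aged-sec, 19.1 TPM in aged and 15.1 TPM in young oocytes. Fbxo34 was at 14.0 TPM in aged-sec, 16.4 TPM in aged and 13.6 TPM in young oocytes, and Fbxo38, Fbxo8, Fbxo17 and Fbxo47 did not pass 1.74 TPM in any library. The Fbxo family as a whole had 8 of 13 members above their aged level in aged-sec oocytes, where 1626 of 6104 listed genes were above, and its median log2 ratio was 0.03, against −0.20 over all listed genes. Scarce members carried this split, since of the 9 Fbxo genes with enough TPM 4 were above and 5 below, with a median of −0.22, against −0.18 over listed genes with enough TPM.

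Leucine-rich repeat F-box genes were few and mostly scarce. Fbxl5, an iron-sensing receptor that targets the iron regulatory protein IRP2, was the only one of 7 to reach 10 TPM, at 57.6 TPM in aged-sec, 73.9 TPM in aged and 55.5 TPM in young oocytes. Its aged-sec value lay close to the young one, with a log2 ratio of 0.05 in aged-sec over young and −0.36 in aged-sec over aged oocytes. Fbxl2 followed at 2.41 TPM in aged-sec, 2.37 TPM in aged and 1.94 TPM in young oocytes. Fbxl21, a receptor for circadian cryptochromes, was at 1.03 TPM in aged-sec, 1.96 TPM in aged and 1.32 TPM in young oocytes. Fbxl13 was at 1.11 TPM in aged-sec, 0.87 TPM in aged and 0.61 TPM in young oocytes, and Fbxl20 did not pass 0.62 TPM in any library. The remaining 2, Fbxl18 and Fbxl22, stayed at 0.26 TPM or less.

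BTB-kelch receptors had the highest median log2 ratio of the 7 families in aged over young oocytes. It was 0.86 over 13 Klhl genes, against 0.48 over all 89 members and 0.47 over all listed genes. Klhl28 was the member under the size rule, at 27.2 TPM in aged-sec, 23.7 TPM in aged and 9.79 TPM in young oocytes, a log2 ratio of 1.24 in aged over young and 0.19 in aged-sec over aged oocytes. Klhl24, which targets a keratin in skin, was at 29.6 TPM in aged-sec, 28.2 TPM in aged and 14.4 TPM in young oocytes. Klhl13, which in human cells removes Aurora B from mitotic chromosomes, was at 25.1 TPM in aged-sec, 26.3 TPM in aged and 14.3 TPM in young oocytes. These 3 stayed at or near their aged level in aged-sec oocytes. Klhl15, which targets a regulatory subunit of protein phosphatase 2A, was at 11.96 TPM in aged-sec, 10.98 TPM in aged and 5.39 TPM in young oocytes. Klhl8 was at 10.6 TPM in aged-sec, 16.0 TPM in aged and 8.30 TPM in young oocytes, so here the aged-sec value lay nearer to the young than to the aged one. The log2 ratios of Klhl15, Klhl24, Klhl8 and Klhl13 in aged over young oocytes were 0.96, 0.95, 0.91 and 0.86, just short of the size rule. The other 8 Klhl genes stayed under 5 TPM, the highest being Klhl18 at 1.79 TPM in aged-sec, 4.72 TPM in aged and 1.79 TPM in young oocytes.

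RING finger genes were the most numerous family and 25 of its 31 members (80.6%) were below their aged level in aged-sec oocytes. The share over all listed genes was 72.5%, so this split lies near the background. Rnf17, a tudor-domain protein known from male germ cells, was at 60.3 TPM in aged-sec, 80.7 TPM in aged and 49.9 TPM in young oocytes. Rnf2, the catalytic RING1B subunit of Polycomb repressive complex 1, was at 61.9 TPM in aged-sec, 59.3 TPM in aged and 36.3 TPM in young oocytes. Rnf4, which recognises SUMO-modified proteins, was at 48.6 TPM in aged-sec, 50.4 TPM in aged and 39.4 TPM in young oocytes. Between aged-sec and aged oocytes Rnf2 and Rnf4 had log2 ratios of 0.06 and −0.05, close to 0, while Rnf17 had −0.42. Among ligases of the endoplasmic reticulum, Rnf185 was at 44.0 TPM in aged-sec, 53.6 TPM in aged and 30.9 TPM in young oocytes. Rnf170, which degrades activated IP3 receptors, was at 35.01 TPM in aged-sec, 37.1 TPM in aged and 20.4 TPM in young oocytes. Rnf115 met the size rule in aged over young oocytes, at 11.1 TPM in both aged-sec and aged oocytes and 4.75 TPM in young oocytes, a log2 ratio of 1.14. Rnf219, a ligase of replication origins in human cells, was at 26.3 TPM in aged-sec, 30.3 TPM in aged and 23.9 TPM in young oocytes, and Rnf111, an activator of TGF-beta signalling, was at 11.3 TPM in aged-sec, 12.9 TPM in aged and 9.34 TPM in young oocytes. The other Rnf genes at 10 TPM or more included Rnf13, at 8.85 TPM in aged-sec, 13.4 TPM in aged and 6.61 TPM in young oocytes, and Rnf34, at 9.64 TPM in aged-sec, 11.6 TPM in aged and 8.58 TPM in young oocytes. In these 4 genes the aged-sec value lay between the other two.

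The lower part of the RING family held larger ratios on small values. Rnf216 was at 3.07 TPM in aged-sec, 7.44 TPM in aged and 0.97 TPM in young oocytes, and its log2 ratio of 2.43 in aged over young oocytes was the largest of the 89 members. Rnf20, which ubiquitinates histone H2B, was at 5.40 TPM in aged-sec, 5.30 TPM in aged and 1.35 TPM in young oocytes, a log2 ratio of 1.65. Both were below 10 TPM in every library and so outside the size rule. Rnf146, which recognises poly(ADP-ribose), was at 3.29 TPM in aged-sec, 2.67 TPM in aged and 1.39 TPM in young oocytes. The meiotic crossover genes Rnf212 and Rnf212b were at 0.05 TPM in aged-sec oocytes, 0.51 and 0.72 TPM in aged oocytes and 0.39 and 0.55 TPM in young oocytes. These values are low in all 3 libraries.

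Tripartite motif genes gave 7 of 16 members at 10 TPM or more. Trim60 was at 65.7 TPM in aged-sec, 82.0 TPM in aged and 48.8 TPM in young oocytes, and Trim75 was at 64.7 TPM in aged-sec, 79.4 TPM in aged and 56.3 TPM in young oocytes. In both, the aged-sec value lay between the other two, with log2 ratios of −0.32 and −0.29 in aged-sec over aged oocytes. Trim12a, a relative of the antiviral gene Trim5, was at 44.3 TPM in aged-sec, 40.2 TPM in aged and 20.9 TPM in young oocytes. It has a close copy in the mouse genome, so its reads may be divided between copies. Trim24, a chromatin-binding cofactor of nuclear receptors, met the size rule in aged over young oocytes with a log2 ratio of 1.07, at 27.2 TPM in aged-sec, 29.1 TPM in aged and 13.6 TPM in young oocytes. Its relative Trim33, a cofactor of Smad signalling, was at 3.07 TPM in aged-sec, 4.93 TPM in aged and 2.78 TPM in young oocytes. Trim36 was at 14.4 TPM in aged-sec, 13.5 TPM in aged and 9.36 TPM in young oocytes. Trim44 was at 10.06 TPM in aged-sec, 11.5 TPM in aged and 9.23 TPM in young oocytes. The 9 Trim genes under 10 TPM, Trim33 among them, reached at most 5.39 TPM.

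Some Ubr proteins recognise destabilising N-terminal residues, and the listed transcripts of the family were all scarce. Ubr3 was at 2.59 TPM in aged-sec, 2.44 TPM in aged and 1.60 TPM in young oocytes. Ubr1 was at 1.60 TPM in aged-sec, 1.54 TPM in aged and 1.24 TPM in young oocytes. Aged-sec was the highest library for both genes by a small margin. Ubr2, the partner of Ubr1 in the N-degron pathway and needed for male meiosis in mice, was at 1.31 TPM in aged-sec, 2.57 TPM in aged and 1.77 TPM in young oocytes, with aged-sec the lowest.

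Setting aged-sec against aged oocytes asks whether adding secretome to the maturation medium goes with other levels of these transcripts. The size rule took 3 members, Trim32, Rnf214 and Rnf19b, all lower in aged-sec oocytes. Trim32, a ligase mutated in a human limb-girdle muscular dystrophy, was at 2.02 TPM in aged-sec, 16.8 TPM in aged and 9.84 TPM in young oocytes, a log2 ratio of −2.78 in aged-sec over aged oocytes. Rnf214 was at 1.83 TPM in aged-sec, 12.2 TPM in aged and 9.39 TPM in young oocytes, a log2 ratio of −2.45. Rnf19b, a RING-between-RING ligase known from natural killer cells, was at 8.39 TPM in aged-sec, 19.8 TPM in aged and 15.1 TPM in young oocytes, a log2 ratio of −1.19. In all 3 the aged-sec value was also below the young value. They were 3 of 38 members with enough TPM (7.89%), against 2.18% of the 1789 listed genes with enough TPM, and with a minimum of 20 TPM in the higher library the count was 0. On the higher side the size rule took 0 of 38 members, against 0.168% of all listed genes. The largest ratio above 0 among the 38 was that of Fbxo11.

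**Figure D2:**
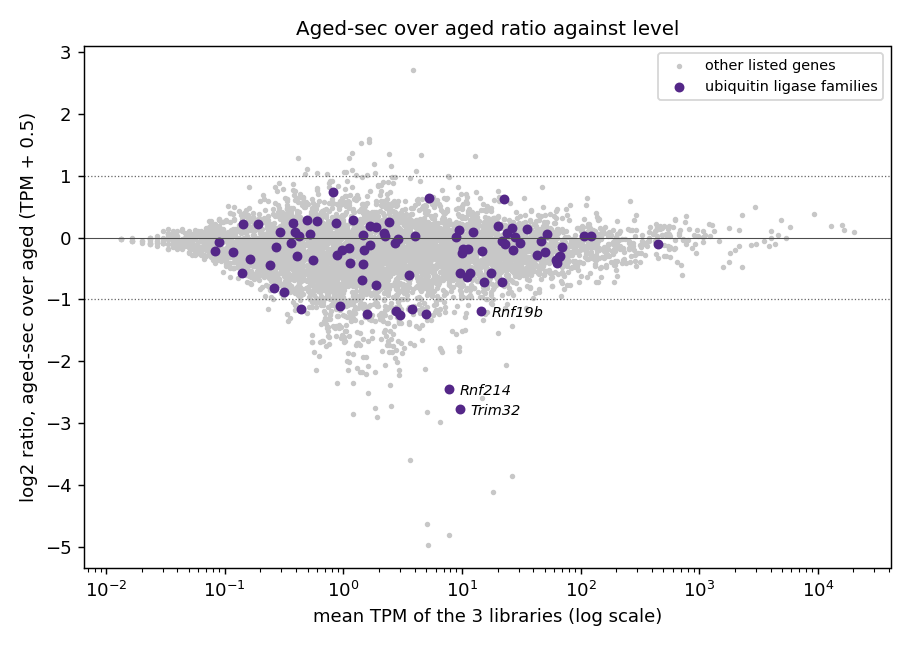
Log2 ratio of aged-sec over aged oocytes against the mean TPM of the 3 libraries on a log scale, for the 89 members and the other listed genes, with dotted lines at a log2 ratio of 1 in either direction. Trim32 at −2.78, Rnf214 at −2.45 and Rnf19b at −1.19 are the members under the size rule, while other members beyond the lower line had fewer than 10 TPM.

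Over the 89 members 57 (64.0%) were below and 32 above their aged level in aged-sec oocytes, and over all listed genes 72.5% were below. Among the 38 members with enough TPM 26 were below (68.4%), and among the listed genes with enough TPM 74% were. The median log2 ratio of the 89 members was −0.17, with quartiles of −0.44 and 0.06, and over all listed genes it was −0.20, with quartiles of −0.45 and 0.02. Both the median and the quartiles of the members thus lay close to those of the whole table. With 0.5 TPM added, the members under 10 TPM with the lowest log2 ratios were Trim37, at −1.25, and Rnf220, at −1.24. Trim37, a ligase that limits centrosome formation, was at 1.98 TPM in aged-sec and 5.39 TPM in aged oocytes, and Rnf220 was at 0.73 TPM in aged-sec and 2.41 TPM in aged oocytes. Without the added 0.5 TPM the lowest ratios of TPM were those of Fbxl18, Rnf212b and Rnf212, at 0.04, 0.07 and 0.10, each with 0.05 TPM or less in aged-sec oocytes. Among the 38 with enough TPM the middle ratios were mild, and Fbxo7, Rnf14 and Fbxo43 came next after the 3 named ones, with log2 ratios of −0.72, −0.71 and −0.64. Rnf14, a RING-between-RING ligase, was at 17.7 TPM in aged-sec, 29.4 TPM in aged and 17.6 TPM in young oocytes, so its aged-sec and young values nearly coincided.

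**Figure D3:**
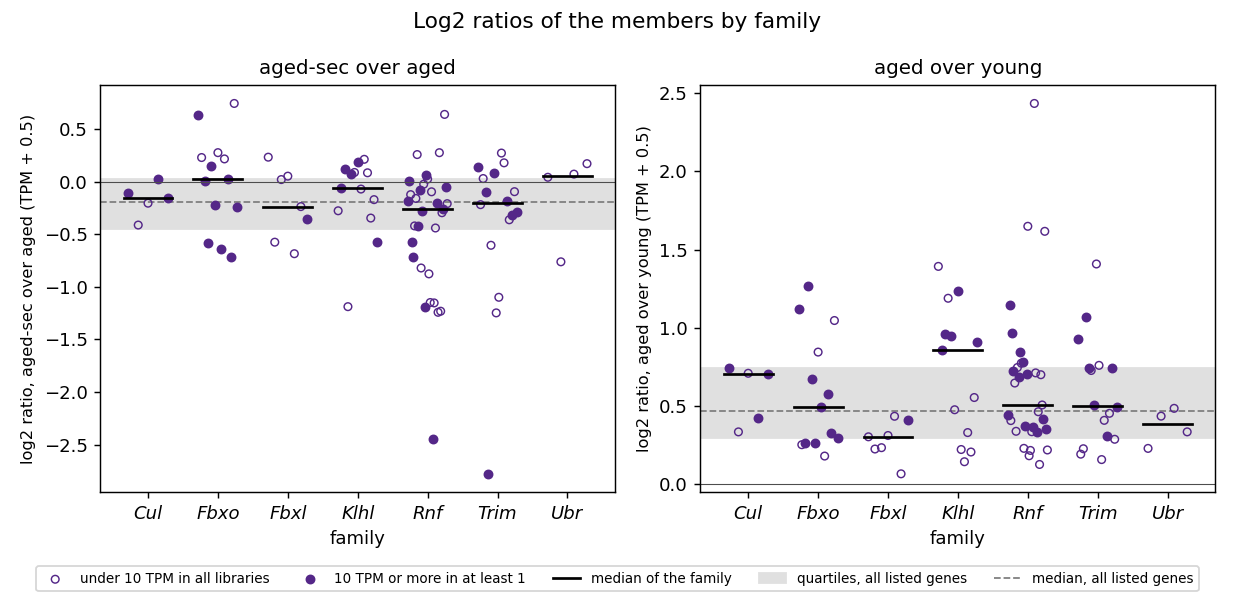
Log2 ratios of the 89 members by family, for aged-sec over aged oocytes in the left panel and aged over young oocytes in the right panel; filled points reached 10 TPM in at least 1 library, bars are family medians, and the grey band and dashed line give the quartiles and median of all listed genes. The Klhl median of 0.86 in the right panel lies above the band, and in the left panel the Fbxo median of 0.03 and the Ubr median of 0.06 lie just above the band. The 9 filled Fbxo points have a median of −0.22, inside the band, and no Ubr point is filled.

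Setting aged against young oocytes asks how large the excess of these transcripts was in the aged library. Fbxo3, Klhl28, Rnf115, Fbxo11 and Trim24 met the size rule, which is 5 of 38 members with enough TPM (13.2%), against 15.9% of 1759 listed genes. Since the direction was fixed by the table, only the size of the ratios varies. The ratios of TPM over the 89 members ran from 1.2 to 7.67, with a median of 1.67, against 1.65 over all listed genes. By family the ratio of summed TPM in aged over young oocytes was 2.05 for Klhl, 1.64 for Trim, 1.61 for Cul, 1.59 for Rnf, 1.47 for Fbxo, 1.40 for Ubr and 1.34 for Fbxl. Members at 10 TPM or more had a median log2 ratio of 0.69, and listed genes at that level had 0.53.

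The comparison of aged-sec with young oocytes does not involve the aged library, although the choice of rows does. That choice also rests on low young values, which by itself raises ratios of aged-sec over young oocytes. Fbxo11, Klhl28, Rnf115, Klhl15, Trim12a and Klhl24 met the size rule on the higher side, with log2 ratios of 1.75, 1.43, 1.15, 1.08, 1.07 and 1.02. They were 6 of 33 members with enough TPM (18.2%), against 14.2% of 1609 listed genes. The rows of Klhl15, Trim12a and Klhl24 are predicted variants. Klhl15 had a log2 ratio of 0.82 with summed rows, and Klhl24 had 0.99 with 1 TPM added, both short of the size rule. On the lower side the rule took 0 members, against 0.311% of listed genes. Trim32 and Rnf214 had log2 ratios of −2.04 and −2.09 but fell short of 10 TPM in young oocytes. The median log2 ratio of the 89 members was 0.27, against 0.29 over all listed genes. In 32 of 89 members the aged-sec value was at or above aged (36.0%, against 27.5% of listed genes), in 38 it lay between aged and young (42.7%, against 48.0%) and in 19 it was at or below young (21.3%, against 24.4%).

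Most of these genes make several annotated mRNAs, and the table held only some of them. Of the 89 members 79 had more than 1 annotated mRNA, and all annotated mRNAs were listed for 11. A single row was listed for 67 members and 2 to 4 distinct rows for 22. In 13 of these 22 genes the rows pointed both ways between aged-sec and aged oocytes, with a difference of any size counted. Of the 34 rows beyond the leading ones only 4 reached 10 TPM in any library. The size rule took 0 of the 34 in either direction in aged-sec over aged oocytes. The split thus rests mostly on scarce rows, and its share over all listed genes was not computed. In Rnf25 both rows were under 10 TPM. There NM_021313 was at 2.91 TPM in aged-sec and 7.51 TPM in aged oocytes, and NM_001305230 was at 3.96 TPM in aged-sec and 1.54 TPM in aged oocytes. For Rnf214 the next variant, NM_001361113, was at 0.81 TPM in aged-sec and 0.82 TPM in aged oocytes. Its row XM_030244314 was at 0.46 TPM in aged-sec and 1.08 TPM in aged oocytes, and NM_001310840 was at 0.58 TPM in aged-sec and 0.42 TPM in aged oocytes. The values given above for Rnf214 are those of NM_001361112. Cul1 had a curated variant, NM_001355551, at 189.8 TPM in aged-sec, 254 TPM in aged and 203 TPM in young oocytes beside its predicted leading row, and this variant was lower in aged-sec than in young oocytes where the leading row was higher. Klhl28 had a second row at 13.0 TPM in aged-sec, 9.72 TPM in aged and 7.60 TPM in young oocytes, and with both rows added up the log2 ratio of Klhl28 in aged over young oocytes was 0.92, short of the size rule. Trim32 and Rnf19b had 1 listed row each. A program that estimates TPM has to share reads between overlapping variants, so a value of 1 row is an uncertain measure of its gene.

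**Figure D4:**
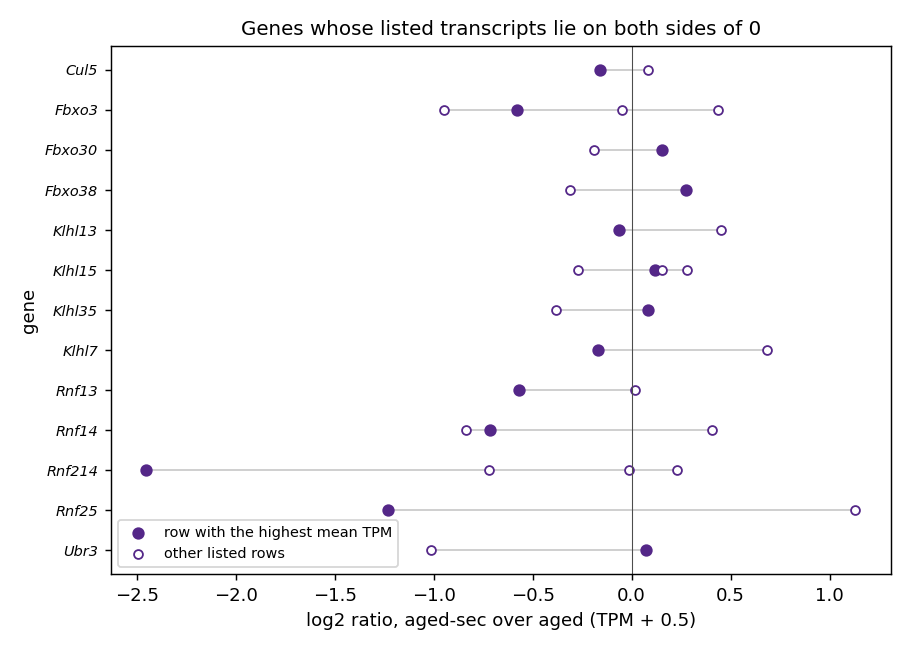
Log2 ratios of aged-sec over aged oocytes for every listed row of the 13 members whose rows lie on both sides of 0; filled points are the rows with the highest mean TPM and open points the others. The row with the highest mean TPM lies left of 0 for Rnf25 and its other row lies right of 0, both under 10 TPM.

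Companion genes of these ligases are given for context, from lists chosen with earlier results of these data known. Of 32 core subunits and regulators of the cullin ligases 14 were listed. The size rule took 0 of the 10 with enough TPM in aged over young and in aged-sec over aged oocytes. Over all listed genes with enough TPM it took 15.9% in aged over young oocytes. In aged-sec over aged oocytes it took 2.18% on the lower and 0.168% on the higher side. Against such shares a count of 0 in a list this small says little. Skp1a, the adaptor between Cul1 and F-box proteins, was at 1189 TPM in aged-sec, 1185 TPM in aged and 855 TPM in young oocytes. Rbx1, the RING subunit of the cullin ligases, was at 494 TPM in aged-sec, 488 TPM in aged and 346 TPM in young oocytes. The adaptor and the RING subunit were thus nearly equal in aged-sec and aged oocytes. Of 15 RING-between-RING ligases 9 were listed, 6 of them members, among which were Rnf14 and Rnf19b described above. Of 25 HECT ligases 18 were listed and none of the 3 with enough TPM met the rule, a list too small to set against the same shares. The highest were Ube3a, at 29.6 TPM in aged-sec, 18.6 TPM in aged and 13.3 TPM in young oocytes, and Nedd4l, at 9.16 TPM in aged-sec, 15.9 TPM in aged and 10.4 TPM in young oocytes.

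Other substrate receptors of cullins were listed for 19 of 39 genes. Of these, 17 of 19 had less TPM in aged-sec than in aged oocytes, against 72.5% of all listed genes. Only 2 of the 19 had enough TPM, so this count rests mostly on scarce transcripts. Dcaf13, a Cul4 receptor needed for mouse oocyte growth, met the size rule in aged over young oocytes with a log2 ratio of 1.25, at 68.6 TPM in aged-sec, 78.8 TPM in aged and 32.9 TPM in young oocytes. Crbn, the thalidomide-binding receptor, was at 20.7 TPM in aged-sec, 23.6 TPM in aged and 14.4 TPM in young oocytes. Of 54 further RING and U-box ligases 17 were listed. Siah1b met the rule on the lower side, at 11.96 TPM in aged-sec, 25.4 TPM in aged and 15.2 TPM in young oocytes, a log2 ratio of −1.05 in aged-sec over aged oocytes. The p53 regulators Mdm4 and Mdm2 were the most abundant there, Mdm4 at 367 TPM in aged-sec, 448 TPM in aged and 238 TPM in young oocytes and Mdm2 at 41.3 TPM in aged-sec, 43.2 TPM in aged and 28.9 TPM in young oocytes. Of 18 chromatin and DNA damage ligases 9 were listed, 6 of them members, with the translesion synthesis ligase Rad18 at 22.2 TPM in aged-sec, 31.9 TPM in aged and 22.1 TPM in young oocytes. Of 13 N-degron genes 8 were listed, led by Kcmf1 at 28.2 TPM in aged-sec, 33.3 TPM in aged and 22.5 TPM in young oocytes.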

How the data were processed

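Oocyte RNA of 3 pools was made into cDNA with SMART-Seq2 and into libraries with a transposon-based method, per the labels' protocols, and sequenced on the DNBSEQ platform. The authors deposited TPM for RefSeq transcripts, per the file headers, in a table named as raw counts. Aligner, quantification program and genome build: not given in the sources used here. Per the file headers, 2 further columns give a ratio computed by the authors, aged to young and aged-sec to aged, and these match the TPM columns to a relative 6.6e-07. The lowest aged to young ratio is 1.2.

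Per symbol the row with the highest mean TPM was used. Log2 ratios were computed after adding 0.5 TPM in both libraries, and the size rule took those of 1 or more in either direction where the higher library reached 10 TPM. With 1 library per group no test was run, and depth is unknown from TPM, so no counting interval is given. Named genes were the members under the size rule, the 5 most abundant of each family, all cullins and Ubr genes, and a short fixed list; some of these are not reported here. Of the fixed list, genes without a listed row were not analysed here. Members outside that rule were named after their values were seen: Fbxo7, Fbxo8, Fbxo17, Fbxo34, Fbxo38, Fbxo47, Fbxl18, Fbxl22, Klhl18, Rnf13, Rnf14, Rnf25, Rnf34, Rnf111, Rnf212, Rnf212b, Rnf216, Rnf219, Rnf220, Trim37 and Trim44. Members and lists were chosen with earlier results of these data known. Annotated genes and mRNAs are those of RefSeq on GRCm38.p6, which held the accessions of all 89 members. Transcript ends needed a 3′ UTR of at least 100 bases. Alternatives covered the pseudocount, the minimum TPM, summed or curated rows and median scaling. Python 3.11.15, pandas 2.3.3 and numpy 2.4.6 were used.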

Additional observations from a re-analysis of the deposited data

How the results depend on the processing

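No paired analysis was possible because each group had 1 library, and for the same reason no replicate could be left out. Of 618 recomputed log2 ratios of the 43 named members, 598 kept their side of the size rule, 15 lost the call, 5 gained it and 0 changed direction when called. Most of the 618 were outside the size rule to begin with, and among these a change of sign was not counted. Cul1 in aged over young, for example, went from 0.75 to −0.20 with libraries scaled to equal medians. The 598 are therefore no measure of how stable the calls were. Scaling the libraries to equal medians of the listed rows moved log2 ratios of abundant transcripts by −0.95 in aged over young, 0.36 in aged-sec over aged and −0.59 in aged-sec over young. Before scaling, the aged over young median was 0.47 over all listed genes. This alternative therefore removes more than the typical excess through which rows entered the table. Under it the member medians changed sign, to −0.17 in aged over young, 0.13 in aged-sec over aged and −0.10 in aged-sec over young, as did those of all listed genes, to −0.13, 0.05 and −0.08. The counts under the size rule became 0 in aged over young (1.795% of listed genes with enough TPM), 1 lower in aged-sec over aged (Trim32; 0.94%), and 1 higher and 3 lower in aged-sec over young (2.91% and 2.04%). Rnf214 then had a log2 ratio of −2.09 in aged-sec over aged but too little TPM for the rule, and Rnf19b had −0.83. With 0.1 TPM added the member medians were 0.59 in aged over young and 0.42 in aged-sec over young.

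With no minimum TPM the counts over 89 members were 12 higher in aged over young (13.2% of all 6104 listed genes), 10 lower in aged-sec over aged (5.095% of all), and 13 higher and 2 lower in aged-sec over young (9.73% and 0.836% of all). With a minimum of 5 TPM they were 9 of 43 higher in aged over young (17.1% of 2464 listed genes), 6 of 43 lower in aged-sec over aged (3.47% of 2509) and 2 of 40 lower in aged-sec over young (0.659% of 2277). With a minimum of 20 TPM 0 of 24 were lower in aged-sec over aged (1.368% of 1170). Curated rows gave 3 of 27 higher in aged-sec over young (11.4% of listed genes), and summed rows gave 1 of 36 lower there (0.344%). Members with a mean of at least 1 TPM had a median of 0.66 in aged over young. Members with a mean of at least 10 TPM had medians of 0.68 in aged over young and 0.44 in aged-sec over young. The count of 3 lower members in aged-sec over aged was the same with either other pseudocount, with summed rows and with curated rows. The 1 library per group limits all of these values.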
